A study of Sus scrofa with 6 samples.

Results

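AMPA receptors are the glutamate-gated channels that carry most fast excitatory transmission in the brain. Each channel is a tetramer of the subunits encoded by GRIA1, GRIA2, GRIA3 and GRIA4, and the mix of subunits sets its gating, its traffic to the synapse and its calcium entry. GRIA2 has a special part in this, because RNA editing of its pore-lining codon makes channels that contain it nearly closed to calcium. All 4 genes were found by symbol among the 21280 protein-coding genes of the deposited table. By position, 4 of the 11375 deposited circular RNAs (circRNAs, loops closed by back-splicing) lay inside them, with 2 in GRIA2, 1 in GRIA1 and 1 in GRIA4. GRIA3 is X-linked, and the circRNA table covered 18 autosomes with 0 entries on X, so circRNAs of GRIA3 were not measured.

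Total RNA depleted of ribosomal RNA was sequenced in 3 samples of wild boar and 3 of Rongchang pig, a Chinese domestic breed, numbered 1 to 3 in the labels and all labelled as females of 2 years. The wild boar samples were labelled as brain. The domestic pig samples were labelled as cerebrum and as a re-analysis of an earlier deposit, and the series title places the study in the prefrontal cortex. Breed, labelled tissue and source of the libraries therefore cannot be told apart in any comparison. Levels are given as TPM, read density per transcript length scaled to a fixed sum of 1000000.

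The libraries differed in scale. The listed protein-coding TPM summed to 17.2% to 31.0% of 1000000 for wild boar libraries against 23.5% to 40.9% for domestic pig libraries, and the median log2 fold change of all 11752 tested genes was -0.41. Each fold is therefore given on deposited TPM and on values rescaled by median ratios between libraries, where that median is 0.00. Shares and ratios within a library do not depend on this scale. Neuron marker levels ranged widely, SNAP25 averaging 858.0 TPM for wild boar against 1102 TPM for domestic pig and RBFOX3 2.77 against 2.71 TPM. SLC17A7, the vesicular glutamate transporter of cortical excitatory neurons, averaged 40.7 and 34.6 TPM.

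GRIA2 had the highest TPM of the subunit genes in all 6 libraries, 2.61 to 3.68 times the next one. It took 52.0%, 50.2% and 51.7% of the summed TPM of the 4 genes in wild boars 1 to 3 and 54.7%, 52.1% and 56.2% in domestic pigs 1 to 3. The lowest domestic pig share was above the highest wild boar share by a small margin. The means were 51.3% ± 0.941 and 54.4% ± 2.09 (SD, n = 3 each). The exact two-sided permutation p was 0.1, the smallest that 3 against 3 can give. It was 0.15 after Benjamini-Hochberg adjustment over 15 comparisons, which are the shares, the ratios and the summed AMPA subunit TPM.

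GRIA1 encodes a subunit with a long cytoplasmic tail whose phosphorylation is tied to synaptic plasticity. Its share was 17.9%, 19.2% and 17.8% in wild boars 1 to 3, and 12.98%, 15.02% and 14.88% in domestic pigs 1 to 3. Every wild boar library lay above every domestic pig library, with means of 18.3% ± 0.764 and 14.3% ± 1.14 (SD, n = 3 each; exact two-sided permutation p = 0.1; adjusted 0.15). This was the widest gap of the 4 shares, 4.03 percentage points, and it stayed between 3.38 and 4.39 points with any 1 library left out.

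GRIA3 encodes a short-tailed subunit that mostly pairs with the GRIA2 product. Its share was 16.2%, 18.0% and 17.3% in wild boars 1 to 3 and 15.6%, 16.7% and 15.3% in domestic pigs 1 to 3. The groups overlapped (17.2% ± 0.910 against 15.9% ± 0.733, SD, n = 3 each; exact two-sided permutation p = 0.2; adjusted 0.214). GRIA4, a subunit of fast-gating receptors that is prominent in interneurons, took 13.9%, 12.6% and 13.2% in wild boars 1 to 3. In domestic pigs 1 to 3 it took 16.7%, 16.2% and 13.6%. Domestic pig 3 was inside the wild boar range, so these groups overlapped too (13.2% ± 0.660 against 15.5% ± 1.64, SD, n = 3 each; exact two-sided permutation p = 0.2; adjusted 0.214). Since the 4 shares add to 100%, a gain of one is a loss of others, and the 4 comparisons are not independent.

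**Figure D1:**
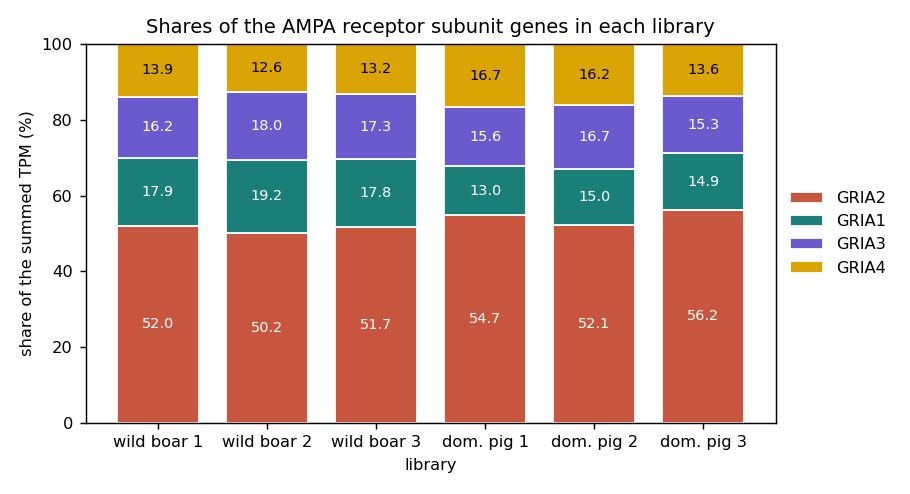
Stacked bars show the share (%) of each AMPA receptor subunit gene in the summed TPM of the 4 genes, 1 bar per library. GRIA2 fills 50.2% to 56.2% of every bar, and GRIA1 fills 17.8% to 19.2% in wild boar against 12.98% to 15.02% in domestic pig.

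Below GRIA2, the order of the genes differed between the groups. All 3 wild boar libraries had GRIA1 above GRIA3 above GRIA4. The 3 domestic pig libraries had 3 different orders, with GRIA4 second in domestic pig 1 and GRIA3 second in domestic pigs 2 and 3. In domestic pig the 3 genes lay close together, the second at 1.11 to 1.28 times the fourth. Their mean TPM was 35.7, 39.2 and 38.0 (GRIA1, GRIA3, GRIA4), with SDs of 10.3, 9.82 and 8.31 that also carry library scale. Within each domestic pig library GRIA3 was above GRIA1, with GRIA1 to GRIA3 at 0.831, 0.901 and 0.975 in domestic pigs 1 to 3. In wild boar the second was 1.29 to 1.52 times the fourth.

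The ratio of GRIA1 to GRIA2 was 0.345, 0.382 and 0.345 in wild boars 1 to 3 and 0.237, 0.288 and 0.265 in domestic pigs 1 to 3. Every wild boar library was higher, by 0.44 on the log2 scale (exact two-sided permutation p = 0.1, n = 3 each; adjusted 0.15). GRIA1 to GRIA4 had the largest difference between groups among the 6 pairs of subunit genes, at 1.29, 1.52 and 1.35 in wild boars 1 to 3 and 0.780, 0.926 and 1.09 in domestic pigs 1 to 3. The groups did not overlap, and the log2 ratio was higher in wild boar by 0.59 (exact two-sided permutation p = 0.1, n = 3 each; adjusted 0.15). GRIA1 to GRIA3 and GRIA3 to GRIA4 also did not overlap, at log2 differences of 0.25 and 0.34 (the same p and adjusted p). GRIA2 to GRIA4 overlapped, at a log2 ratio of 1.96 ± 0.0492 against 1.82 ± 0.200 (SD, n = 3 each; exact two-sided permutation p = 0.4; adjusted 0.4), with a difference of 0.08 to 0.26 when any 1 library was left out. GRIA2 to GRIA3 overlapped as well (1.58 ± 0.101 against 1.78 ± 0.122, SD, n = 3 each; exact two-sided permutation p = 0.2; adjusted 0.214). The 5 pairs other than GRIA1 to GRIA2 were added after the data were seen.

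The levels themselves were lower in wild boar for all 4 genes on deposited TPM, and 0 of the 4 passed. GRIA1 was at 26.9, 15.6 and 35.1 TPM in wild boars 1 to 3 and 24.0, 43.6 and 39.4 TPM in domestic pigs 1 to 3. GRIA2 was at 77.8, 40.9 and 101.7 TPM against 101.1, 151.1 and 149.0 TPM. GRIA3 was at 24.2, 14.6 and 34.1 TPM against 28.8, 48.4 and 40.4 TPM. Wild boar 2, the library with the smallest protein-coding sum, was lowest for each of these genes, and the groups overlapped for all 3. GRIA4 was at 20.8, 10.3 and 25.9 TPM against 30.7, 47.0 and 36.1 TPM, the only member whose groups did not overlap. Of all tested genes, 17.1% were lower in wild boar without overlap on this scale. The summed TPM of the 4 genes, which depends on library scale, overlapped at 142.6 ± 58.1 for wild boar against 246.6 ± 55.1 for domestic pig (SD, n = 3 each). Its log2 difference was -0.86 (exact two-sided permutation p = 0.2, adjusted 0.214).

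On deposited TPM the log2 fold changes (wild boar over domestic pig, here and below) were -0.48 for GRIA1, -0.93 for GRIA2, -0.71 for GRIA3 and -1.03 for GRIA4, each with an SE of 0.42. The limma adjusted p were 0.518, 0.241, 0.343 and 0.195. Without wild boar 2 the 4 values were -0.17, -0.56, -0.40 and -0.66. GRIA1 moved by over 1.5 times too when wild boar 3 was left out (-0.72), and likewise for domestic pigs 1 (-0.73) and 2 (-0.31). On this scale limma pooled the variance wholly across genes of like level, so the SE does not measure a single gene's spread. The median of the 4 was -0.82 against -0.41 for all tested genes, of which 1.6% passed (1.46% lower in wild boar, 0.136% higher) and 88% lay below 0.

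After rescaling, GRIA4 fell and the other 3 did not pass. GRIA4 was at 23.7, 17.8 and 22.3 rescaled TPM in wild boars 1 to 3 and 35.2, 33.2 and 26.4 in domestic pigs 1 to 3, with no overlap. Its log2 fold change was -0.55 (SE 0.15, limma adjusted p = 0.0370). The call did not hold when wild boar 1, 2 or 3 or domestic pig 1 or 2 was left out (adjusted p = 0.0567, 0.111, 0.0779, 0.108 and 0.0709) and held without domestic pig 3 (0.0320). It also missed the threshold when all genes above 0 set the factors (-0.48, adjusted p = 0.0539). With each library scaled by its protein-coding sum instead, GRIA4 stood at -0.57 (limma adjusted p = 0.0859) and did not pass.

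GRIA2 was at 88.4, 70.9 and 87.4 rescaled TPM in wild boars 1 to 3 and 115.7, 106.7 and 108.8 in domestic pigs 1 to 3. The groups did not overlap, and the log2 fold change of -0.43 (SE 0.13) just missed the threshold (limma adjusted p = 0.0518). GRIA3 was at 27.5, 25.4 and 29.3 against 33.0, 34.1 and 29.5 rescaled TPM, also without overlap, at -0.23 (SE 0.11, limma adjusted p = 0.171). GRIA1 was at 30.5, 27.1 and 30.2 against 27.4, 30.8 and 28.8 rescaled TPM. Its groups overlapped, and the fold change of 0.01 (SE 0.10, limma adjusted p = 0.946) was of the other sign than on deposited TPM. On this scale 19.6% of all tested genes passed, 11% as lower and 8.59% as higher, 49.3% lay below 0, and 22.5% were lower in wild boar without overlap. The median of the 4 genes was -0.33 against 0.00 for all tested genes. In tissue pieces, fewer cells of a type and less RNA per cell cannot be told apart.

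**Figure D2:**
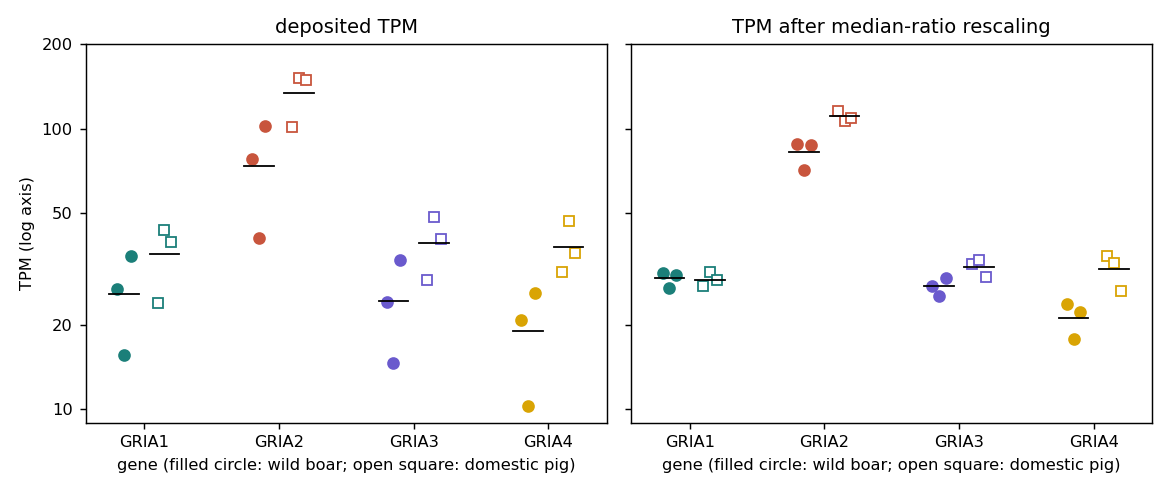
Points show the TPM (log axis) of each subunit gene in the 3 wild boar (filled circles) and 3 domestic pig (open squares) libraries, deposited on the left and after median-ratio rescaling on the right, with group means as bars. On deposited TPM only GRIA4 does not overlap between groups, after rescaling GRIA2, GRIA3 and GRIA4 do not, and GRIA1 then lies at 27.1 to 30.8 in all 6 libraries.

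Set against other receptor families, the summed AMPA subunit TPM was 3.17, 2.73 and 3.17 times the summed NMDA subunit TPM in wild boars 1 to 3, and 6.93, 3.84 and 5.81 times in domestic pigs 1 to 3. NMDA receptors are the slower, calcium-permeable glutamate channels that open only when the cell is depolarized. The ratio was lower in every wild boar library (3.02 ± 0.256 against 5.53 ± 1.57, SD, n = 3 each; log2 difference -0.83, exact two-sided permutation p = 0.1; adjusted 0.15). GRIN1, the obligatory NMDA subunit, rose after rescaling by log2 1.03 (SE 0.17, limma adjusted p = 0.00876), against 0.55 on deposited TPM (adjusted p = 0.458). It was 1 of 4 tested NMDA genes to pass after rescaling, where 19.6% of all tested genes passed. GRIN2A, GRIN2B and GRIN3A stood at 0.10, 0.04 and 0.03 after rescaling and did not pass.

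The AMPA sum was 7.18, 6.23 and 7.46 times the summed kainate subunit TPM (GRIK1 to GRIK5) in wild boars 1 to 3 and 9.31, 7.47 and 7.86 times in domestic pigs 1 to 3. Wild boar 3 and domestic pig 2 nearly touched (log2 difference -0.24, exact two-sided permutation p = 0.1, n = 3 each; adjusted 0.15). The difference was -0.14 without domestic pig 1. As a share of the summed TPM of all 18 ionotropic glutamate receptor genes, GRIA2 took 33.8% ± 1.67 for wild boar against 40.4% ± 3.50 for domestic pig, GRIA4 8.71% ± 0.670 against 11.5% ± 1.40, and GRIA1 12.05% ± 0.112 against 10.6% ± 0.516 (SD, n = 3 each). GRIA3 took 11.3% ± 0.409 against 11.8% ± 0.391, a difference of the other sign than within the AMPA sum. Of the 7 kainate and delta genes 0 passed on either scale, where 1.6% (deposited) and 19.6% (rescaled) of all tested genes passed. GRIK1 and GRIK2 were at -0.46 and -0.36 after rescaling and GRIK5 at 0.75 (limma adjusted p = 0.0620, 0.0543 and 0.0529). Against the sum of 9 neuron markers the AMPA sum averaged 0.0722 ± 0.00112 for wild boar against 0.0978 ± 0.0129 for domestic pig (SD, n = 3 each), lower in every wild boar library with a log2 difference of -0.43 (exact two-sided permutation p = 0.1; adjusted 0.15). The neuron markers themselves differed after rescaling, TUBB3 and UCHL1 higher by 0.80 and 0.52 and passing, MAP2 and ELAVL4 at -0.36 and -0.34 and not passing.

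AMPA receptors travel with auxiliary proteins. The 6 transmembrane AMPA receptor regulatory proteins (TARPs), which bring the channels to the synapse and slow their closing, summed to 0.145, 0.227 and 0.164 of the AMPA sum in wild boars 1 to 3 and 0.0864, 0.114 and 0.109 in domestic pigs 1 to 3. Every wild boar library was higher (log2 difference 0.78, exact two-sided permutation p = 0.1, n = 3 each; adjusted 0.15). After rescaling the 6 TARP genes lay between 0.24 (CACNG5) and 0.41 (CACNG3), median 0.32, and 0 of 6 passed. Of all tested genes 19.6% passed and 49.3% lay below 0 on that scale. CACNG3, CACNG8, CACNG2 and CACNG4 had limma adjusted p of 0.0828, 0.121, 0.162 and 0.185. On deposited TPM all 6 were between -0.11 and -0.01, where the median of all tested genes was -0.41.

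**Figure D3:**
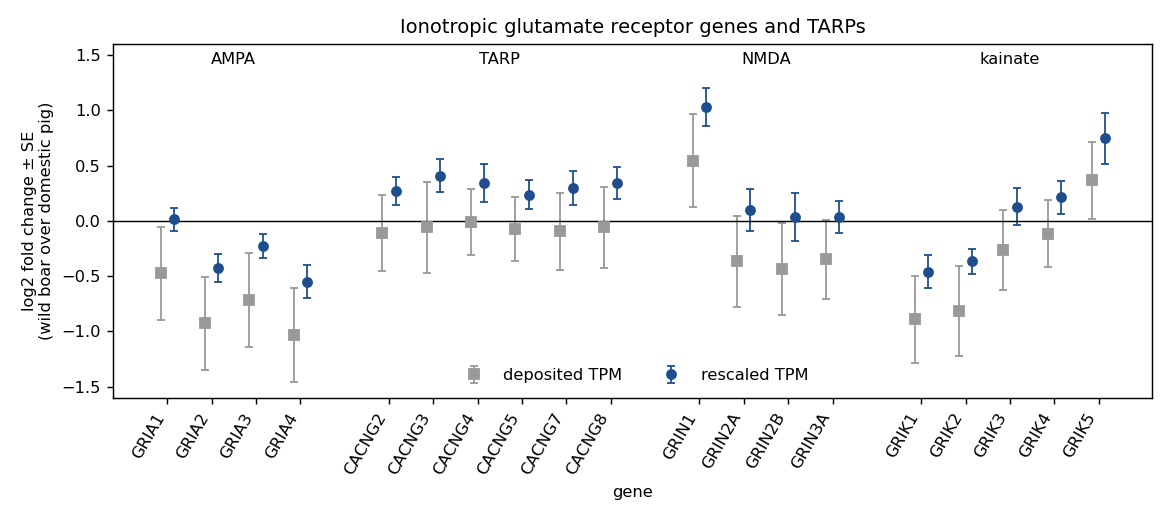
Symbols show the limma log2 fold change with its SE for the tested AMPA, TARP, NMDA and kainate receptor genes, on deposited (squares) and rescaled (circles) TPM. After rescaling GRIA2, GRIA3 and GRIA4 lie below 0 at -0.43, -0.23 and -0.55, the TARP genes lie above 0, and GRIN1 stands highest at 1.03.

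Of 17 other tested auxiliary and assembly genes, 1 rose and 1 fell after rescaling, and 0 passed on deposited TPM. Of all tested genes 8.59% rose and 11% fell after rescaling. LRRTM4, a synaptic adhesion protein found in AMPA receptor complexes, fell by 0.75 on the log2 scale (SE 0.093, limma adjusted p = 0.00484), with mean rescaled TPM of 9.87 (wild boar) and 17.3 (domestic pig). On deposited TPM it stood at -1.22 (adjusted p = 0.108). ABHD12, a lipid hydrolase, rose by 0.48 (SE 0.11, limma adjusted p = 0.0195). OLFM2 and PRRT2 stood at 0.49 and 0.47 (adjusted p = 0.0581 and 0.0616). FRRS1L and ABHD6, which act in receptor assembly, stood at -0.18 and -0.09 after rescaling, and OLFM3 at -0.40. The median of the list was 0.25 after rescaling and -0.20 on deposited TPM.

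Of 23 tested scaffold and trafficking genes, 3 rose and 2 fell after rescaling, near the 19.6% of all tested genes that passed on this scale (8.59% higher, 11% lower), and 0 passed on deposited TPM. The 2 that fell were DLG1, the scaffold SAP97 that binds the tail of the GRIA1 product, at -0.64 (SE 0.12, limma adjusted p = 0.0132), and AKAP5, a kinase anchor, at -0.48 (SE 0.12, adjusted p = 0.0283). NPTXR, a neuronal pentraxin that clusters AMPA receptors from outside the cell, rose by 0.93 (SE 0.22, adjusted p = 0.0255), and DLG4, the scaffold PSD-95, by 0.56 (SE 0.15, adjusted p = 0.0338). NPTX1, a partner of NPTXR, was the third that rose (0.58, SE 0.16, adjusted p = 0.0420). GRIP1, which binds the tails of the GRIA2 and GRIA3 products, stood at -0.40 (adjusted p = 0.0577) and KIF5A at -0.37. The median of the list was 0.02.

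Of 13 kinase and phosphatase genes acting on AMPA receptors, 5 rose after rescaling, where 8.59% of all tested genes did, and 0 passed on deposited TPM. CAMK2A and CAMK2B, the kinase subunits that phosphorylate the GRIA1 product during plasticity, rose by 0.85 (SE 0.19, limma adjusted p = 0.0204) and 0.68 (SE 0.15, adjusted p = 0.0196). PRKACA, a catalytic subunit of protein kinase A, and PPP1CA, of protein phosphatase 1, rose by 0.83 and 0.49. PPP3CA, PRKACB, FYN and PRKCA, the 4 of lowest p on deposited TPM, did not pass there (log2 fold changes -0.70, -0.66, -0.49 and -0.48), and the list's median was -0.22 on that scale and 0.23 after rescaling.

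ADARB1 encodes the enzyme that edits the pore-lining codon of GRIA2 transcripts. It rose after rescaling by 0.50 (SE 0.12, limma adjusted p = 0.0268), against 0.06 on deposited TPM, with means of 6.61 TPM (wild boar) and 6.32 TPM (domestic pig). ADAR and ADARB2 stood at 0.20 and 0.18 and did not pass. Gene TPM shows neither the edited share of GRIA2 nor the flip and flop splice forms of the subunits.

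Markers of other cell types were read beside the subunit genes. After rescaling, 19.6% of all tested genes passed, 8.59% as higher and 11% as lower. List counts near these shares do not set a list apart. On deposited TPM 0.136% were higher. Of 8 tested GABAergic markers 0 passed, and the summed rescaled TPM of that list ranged over 214.0 to 258.5 for wild boar against 183.9 to 261.5 for domestic pig. DLX1 and DLX2 were under the filter on low values. Precursors of oligodendrocytes, which also carry AMPA receptors, had OLIG1 and OLIG2 higher after rescaling, the scale of all calls on these lists, by 0.53 and 0.70, 2 of 6 tested, with list sums of 57.9 to 74.5 against 51.9 to 63.2. VCAN, of the same list, stood at -0.66 (limma adjusted p = 0.0581), PDGFRA and GPR17 both at -0.15, and the list median was 0.09. CSPG4 was under the filter. Of 9 myelin markers 3 were lower and 0 higher, ERMN, ASPA and UGT8 at -0.76, -0.73 and -0.64, while CNP stood at 0.47 and did not pass (list sums of 2092 to 3292 against 2448 to 2933). Among astrocyte markers ALDOC rose by 0.54 and AQP4 stood at -0.62 without passing (1 of 7 passed, list sums of 959.2 to 1301 against 1025 to 1122). In the microglia list C1QA was higher by 0.72 and P2RY12 stood at -0.67 without passing (1 of 7 passed, list sums of 52.9 to 107.3 against 60.2 to 81.6). Of 9 endothelial and mural markers 3 were higher, with list sums of 61.3 to 85.0 against 30.1 to 39.5, and all 4 tested red blood cell genes were higher (2 of them on deposited TPM too), with sums of 448.3 to 1319 against 87.0 to 227.4. Among glutamatergic markers NEUROD2, CAMK2A and SLC17A7 were higher and NEUROD6 lower, 4 of 7 tested, with a list median of 0.51. The list sums overlapped, at 2474 to 5096 against 1735 to 2584, and NRGN alone averaged 3354 and 2029 of them. The part of these lists in the subunit levels and shares was not tested.

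The genes most alike to each subunit gene over the 6 libraries were sought among 6465 genes, by the root-mean-square difference of log2 rescaled values centred on each gene's mean. For GRIA1 they were RAB39B, FBXO21 and PTK2, at 0.0234 to 0.0331. For GRIA2 they were SLC25A36, CREB1 and PLCL2, at 0.0289 to 0.0389, and for GRIA3 SLC4A8, TNKS2 and GOPC, at 0.0143 to 0.0232. GRIA4 had no gene as close, with GALNT7, SCN3A and UBA6 at 0.0583 to 0.0649. These distances are not scaled to the spread of each gene. The SD over the 6 libraries was 0.0767 for GRIA1, 0.262 for GRIA2, 0.154 for GRIA3 and 0.355 for GRIA4. The subunit genes stood farther from each other, GRIA2 from GRIA4 by 0.130, GRIA2 from GRIA3 by 0.135, GRIA1 from GRIA3 by 0.139 and GRIA1 from GRIA4 by 0.320. With 6 points that share their scaling and so many candidates, small distances arise easily, and they carry no test.

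The 4 circRNAs had few reads, 4 to 111 each over the 6 libraries. Every deposited circRNA value could be resolved into whole back-splice reads, the reads that cross the closing junction, and a spliced length. GRIA2 hosted the 2 most abundant. The longer one (ssc_circ_6803, chromosome 8, 46159900 to 46183679, plus strand, spliced length 653 nt) ranked 714 of 11375 by mean TPM. The shorter one (ssc_circ_6804, chromosome 8, 46172648 to 46183679, plus strand, 413 nt) ranked 1283. The build was not given in the sources used here, and the host table holds no strand to compare with. Both ended at the same base, and the longer one began 12748 bases upstream and held 240 nt more of spliced sequence. The GRIA1 circRNA (ssc_circ_6345, chromosome 16, 69371781 to 69379210, minus strand, 447 nt) ranked 3780, and the GRIA4 circRNA (ssc_circ_7862, chromosome 9, 35722365 to 35745549, plus strand, 962 nt) ranked 10556.

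The longer GRIA2 circRNA had 13, 12 and 10 reads in wild boars 1 to 3 and 19, 16 and 41 in domestic pigs 1 to 3, or 0.495, 0.283 and 0.467 TPM against 0.564, 0.709 and 1.48 TPM. The groups did not overlap, as for 18.2% of the 9709 tested circRNAs in this direction, and domestic pig 3 stood well above the rest. Its log2 fold change was -0.99 (-0.59 without domestic pig 3; SE 0.45, limma adjusted p = 0.330; 0.134% of tested circRNAs passed and 74.2% lay below 0), and -0.46 when each library was scaled by its circRNA sum. The shorter one had 11, 3 and 4 reads in wild boars 1 to 3 and 10, 7 and 7 in domestic pigs 1 to 3, with wild boar 1 the highest of all at 0.663 TPM. Its groups overlapped (-0.57, SE 0.54, limma adjusted p = 0.638), and the value was -0.02 without wild boar 2 and -1.11 without wild boar 1. The longer circRNA made 42.8%, 71.7% and 61.3% of the TPM of the pair in wild boars 1 to 3 and 54.6%, 59.1% and 78.7% in domestic pigs 1 to 3, so neither form led in every library.

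Both GRIA2 circRNAs together came to 1.49%, 0.968% and 0.750% of the GRIA2 gene TPM in wild boars 1 to 3 and 1.02%, 0.793% and 1.26% in domestic pigs 1 to 3. These overlapped (1.07% ± 0.380 against 1.03% ± 0.234, SD, n = 3 each; exact two-sided permutation p = 1; adjusted 1 over 6 such comparisons). Their summed TPM was 0.772 ± 0.381 against 1.37 ± 0.449 (SD, n = 3 each; exact two-sided permutation p = 0.2; adjusted 0.48). How the gene and circRNA tables were scaled to each other was not given in the sources used here, so the percentages serve only to compare libraries.

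The GRIA1 circRNA had 0, 7 and 5 reads in wild boars 1 to 3 and 1, 2 and 1 in domestic pigs 1 to 3. Wild boar 2 and 3 held 12 of its 16 reads, while wild boar 1 held 0, which allows up to 3 of its 37964 back-splice reads (0.0079%). Its log2 fold change was 0.57 (SE 0.81, limma adjusted p = 0.759), 1.55 without wild boar 1 (adjusted p = 0.397) and -0.03 without wild boar 3. The GRIA4 circRNA had 1 and 3 reads in domestic pig 1 and 2 and 0 in the other 4 libraries and was under the filter on low values, so limma did not test it. Its summed TPM averaged 0 against 0.0368 ± 0.0473 (SD, n = 3 each; exact two-sided permutation p = 0.4; adjusted 0.48). NMDA subunit genes hosted 8 deposited circRNAs (5 in GRIN2B), and kainate and delta genes hosted 13 (6 in GRIK1); the median over all hosts was 2.

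**Figure D4:**
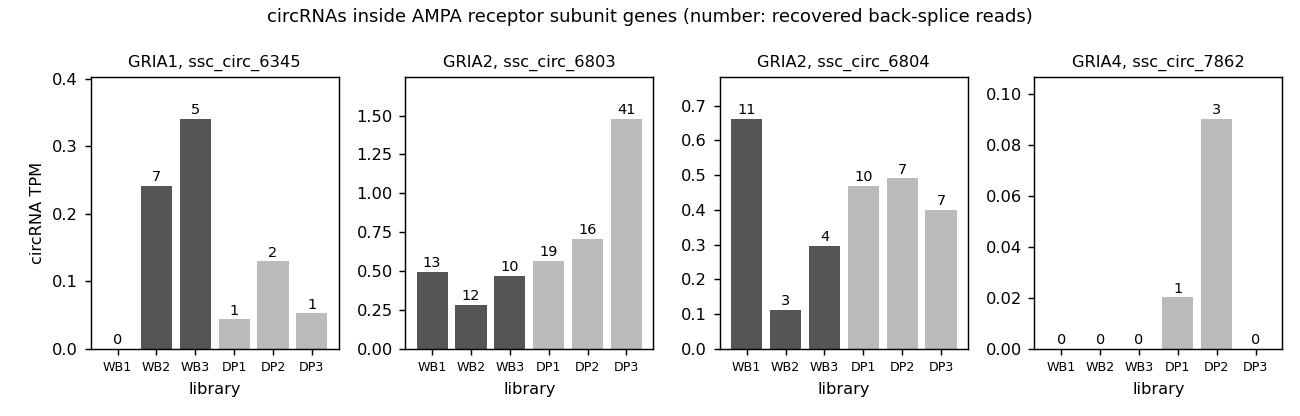
Bars show the TPM of the 4 circRNAs inside AMPA receptor subunit genes in wild boar (WB, dark) and domestic pig (DP, light) libraries, each panel with its own axis from 0, and numbers give the recovered back-splice reads. The longer GRIA2 circRNA has 10 to 13 reads in wild boar and 16 to 41 in domestic pig, and the GRIA4 circRNA has 4 reads in all.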

How the data were processed

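The authors deposited TPM for protein-coding genes and for circRNAs, per the file headers, with 1 column per library and 0 unused columns. STAR 2.6.0c and BWA 0.7.17 are listed, with no role, in the submitters' processing notes; the genome build, annotation release and circRNA caller are not given in the sources used here. Per the labels' protocols, libraries were stranded and depleted of ribosomal RNA. Gene identifiers were matched to symbols (14821 of 21280). Host genes came from RefSeq gene spans of Sscrofa11.1, which held 98.52% of circRNAs (40.66% after a shift of 1000000 bases); that table gives no strand. CircRNA starts were raised by 1 to count from 1.

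All 11375 circRNAs resolved into whole reads, within a relative tolerance of 1e-05, and into whole lengths. The length scale was set by 167 circRNAs whose length equals their span. For 538 of the 11375, reads were raised to the smallest multiple that made the length whole. Any further multiple shared by all libraries of 1 circRNA cannot be seen, so reads are the smallest solution with a whole length. The recovery and the fits were tested on simulated data, drawn independently for each gene or circRNA. Reads were recovered exactly for 98.7% of 3000 simulated circRNAs. Among tested genes or circRNAs above the median level, a simulated log2 fall of 1 passed for 8% of genes on deposited TPM. It passed for 80% of genes after rescaling and 0% of circRNAs. For a fall of 2 the shares were 78%, 96% and 14%, so changes of these sizes can be missed. Recovered reads were 33580 to 72872 per library. Gene TPM keeps no depth.

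The 11752 genes with 3 or more libraries at TPM 1 or above were tested on log2(TPM + 1), and the 9709 circRNAs detected in 3 or more libraries on log2(TPM + 0.043), about the value of 1 read, with limma 3.58.1 (mean-variance trend, R 4.3.3), two-sided, Benjamini-Hochberg adjusted over each whole table, threshold 0.05. Fold changes on these scales understate changes of low values. Rescaling divided TPM by median ratios over genes at TPM of at least 1 in every library. Shares, ratios and summed TPM were compared with exact permutation tests over libraries. The labels do not say that replicates came from separate animals beyond their numbering, so p-values rest on the spread between these samples. For limma on deposited TPM that spread was pooled wholly across genes of like level.

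Alternatives covered scaling, pseudocount, filter, variance model, replicate block and leaving out each library. The members and gene lists were chosen with earlier results of these data known. Named were the 4 subunit genes, all 4 circRNAs, the tested members of lowest p (up to 4) of each list on either scale, and the 3 genes of most alike pattern with a symbol and a mean TPM of at least 5. NPTX1, which also passed in its list, was named after its values were seen. Some list members are not reported here. CNIH2, SHISA6, EPB41L1, NEFM, S100B, MOBP, TMEM119 and VWF matched no identifier.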

Additional observations from a re-analysis of the deposited data

How the results depend on the processing

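On deposited TPM 188 genes passed; median-ratio rescaling gave 2303, scaling by the protein-coding sum 1146, no filter on low values 6, no mean-variance trend 285 and the replicate block 70, and leaving out 1 library gave 58 to 665. After rescaling, the replicate block gave 1250 calls and leaving out wild boar 1, 2 or 3 gave 1079, 781 or 823 and domestic pig 1, 2 or 3 864, 2204 or 1481. On rescaled TPM the replicate block left GRIA4 short of the threshold (limma adjusted p = 0.0615), and no other subunit call changed. The labels give the groups shared replicate numbers and do not say how the replicates relate. Deviations of same-numbered libraries correlated at 0.11, -0.08 and -0.16 after rescaling. With so few libraries these values do not settle whether the replicates were paired. GRIA1 turned from -0.48 to 0.013 with rescaling, and on rescaled TPM to -0.027, -0.019 and -0.011 without domestic pig 1, wild boar 1 and wild boar 3. For circRNAs 13 passed, against 26 with a pseudocount of 0.1, 6 without the filter, 2 scaled by the circRNA sum, 20 with the replicate block and 0 to 1 without 1 library; the GRIA1 circRNA ranged from -0.025 (without wild boar 3) to 1.55 (without wild boar 1). As a share of 18 ionotropic receptor genes, GRIA3 turned from 1.31 to -0.47 percentage points. The GRIA2 circRNA percentage ranged from -0.17 to 0.20 points without 1 library, turning sign without wild boar 1 or domestic pig 2 (-0.07). The other shares and ratios kept their sign under every alternative run; with 3 against 3 none can pass. The cause of these shifts was not tested. Few reads limit the circRNA values.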
